A study of Bos taurus with 8 samples.

Results

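The genes described here encode the subunits and dedicated partners of the proteasome, measured in bovine blastocysts produced in vitro and in vivo. They are all genes whose symbol in the array's platform annotation is PSM followed by a letter between A and G and a number. That rule, which uses names and no measured value, took 78 of the 43795 probes and 46 of the 15229 gene symbols on the array. The 20S core (PSMA and PSMB) has 19 of these genes and the regulators and chaperones (PSMC to PSMG) have 27. A probe was tested when, in either kind of embryo, its spot outshone 95% of the 153 negative controls on each of the 8 arrays. Of the proteasome genes 43 had such a probe (17 of the core and 26 of the regulators), which is 93.5% of them, against 66.9% of all symbols. The probes that stand for these 43 genes were above that limit on all 8 arrays in both kinds of embryo, so none was tested through 1 kind alone. PSMA8, a testis form of an alpha subunit, was detected on 5 arrays in vitro and 3 in vivo, the immunoproteasome gene PSMB8 on 3 in vitro and 4 in vivo, and the lid gene PSMD3 on 2 in vitro and 7 in vivo. These 3 were not tested. PSMD13 and PSME3 were not analysed here.

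The proteasome is the protease that degrades proteins tagged with ubiquitin. Its barrel, the 20S core, is a stack of rings of alpha subunits (PSMA), which gate the entrance, and beta subunits (PSMB), some of which hold the cutting sites. The 19S regulatory particle caps the barrel: its ATPases (PSMC) unfold the substrate and its other subunits (PSMD) bind ubiquitin, remove it or hold the particle together. Other caps (PSME) open the barrel without ATP, PSMF1 inhibits it in the test tube, and the PSMG chaperones, with some PSMD chaperones, assist assembly and are not part of the finished particle. In the early embryo the proteasome clears maternal proteins and cell cycle regulators. The roles given below are those established for the human and yeast proteins.

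RNA of in vitro and in vivo blastocysts was hybridised together on 8 two-colour arrays, in 4 biological replicates of each kind and once in each dye orientation. The in vitro embryos came from oocytes of 2 to 6 mm follicles of slaughterhouse ovaries, per the treatment text, while the source name has them produced after OPU. They were matured, fertilized and cultured in vitro and collected 168 h after fertilization. The in vivo embryos came from Holstein donors whose follicles over 8 mm were ablated. The donors received 400 mg of FSH in 8 injections falling to 20 mg from 60 mg, and 500 ug of a prostaglandin analogue with each of the last 2. They were inseminated 12 and 24 h after oestrus with the semen pool that also served for in vitro fertilization. The sample labels give collection at 7 days after insemination and the treatment text gives uterine flushing at 7.5 days. The labels do not state how many embryos made a replicate, nor their sex. Oocyte source, superovulation, exact age and culture go wholly with the in vitro and in vivo groups and cannot be told apart.

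Facts that concern every gene on the array are these. Across probes replicate 2 shared less with the rest: its ratios had r of 0.386 to 0.459 with replicates 1, 3 and 4, and pairs among those 3 had r of 0.804 to 0.822. Replicate 2 lay farthest from the median of the 4 ratios in 60.5% of the proteasome genes and in 58.3% of all genes. Slides coincide with dye orientations: slide 58 carried in vitro RNA in Cy5 and slide 61 carried in vivo RNA in Cy5. Of 11 tested trophectoderm markers 6 were lower and 1 was higher in vitro, and their mean log2 level was 10.45 to 10.79 in the in vitro replicates and 11.50 to 11.74 in the in vivo replicates. Of 6 inner cell mass markers 2 were lower, with mean levels of 9.38 to 9.94 in vitro and 10.04 to 10.33 in vivo. Mean levels of the lists that follow are over all their genes on the array, tested or not. The oocyte list had none of 5 tested genes called (mean of 8 genes 6.86 to 6.98 in vitro and 6.83 to 6.90 in vivo, GDF9 detected on no array). The cumulus list had none of 7 called (mean of 9 genes 7.26 to 7.47 in vitro and 7.50 to 7.71 in vivo). The oviduct and uterus list had 1 of 3 tested genes lower, MUC1, at 7.10 in vitro and 7.55 in vivo. The mean of that list's 6 genes was 6.71 to 6.82 in vitro and 6.84 to 6.93 in vivo, with ESR1 detected on no array. The sperm list had its 1 tested gene, TNP1, lower at -1.63 (mean of 6 genes 6.72 to 6.84 in vitro and 7.00 to 7.12 in vivo). The part of these markers in the results below was not tested, and in whole embryos fewer cells of a type and less RNA per cell cannot be told apart.

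Proteasome genes moved in both directions, with a median ratio near 0. At an adjusted p under 0.05, 10 of the 43 genes were higher and 5 were lower in vitro, and 28 were not called. That is 34.9% called, with 23.3% higher and 11.6% lower. Of the 10188 genes tested on the array 21.8% were called, with 9.23% higher and 12.6% lower. The share of lower genes was thus near that of the whole array, and the share of higher genes was above it. The median log2 ratio, in vitro over in vivo, was 0.00 for the proteasome genes and -0.01 for all genes. Levels of the 4 in vitro and 4 in vivo replicates did not overlap in 10 genes with in vitro above and 6 with in vitro below, where 9.89% and 13.2% of all genes did so (23.1% in either direction). Called genes made up a larger share of the regulators than of the core. Among the 17 core genes 2 were higher and 1 was lower (17.6% called), with a median absolute log2 ratio of 0.17. Among the 26 regulators 8 were higher and 4 lower (46.2% called), with a median absolute log2 ratio of 0.45, and over all genes it was 0.19. The difference between core and regulators was not tested. In single replicates the core did not always lie below: the median absolute ratios of replicates 1 to 4 were 0.42, 0.37, 0.22 and 0.16 in the core and 0.39, 0.39, 0.59 and 0.42 in the regulators. Without replicate 2 the counts over all proteasome genes were 12 higher and 9 lower (16% and 20.2% of all genes, 36.2% together). They were 2 higher and 2 lower without replicate 1 (3.23% and 4.59% of all genes), near the share of the whole array. They were 3 and 2 without replicate 3 (3.65% and 4.91% of all genes) and 3 and 2 without replicate 4 (2.77% and 3.5% of all genes). When the replicate number entered as a block over 8 arrays, 11 genes were higher and 8 lower, against 30.6% of all genes called. The deposited log2 ratios gave the same 10 higher and 5 lower, against 21.4% of all genes called.

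**Figure D1:**
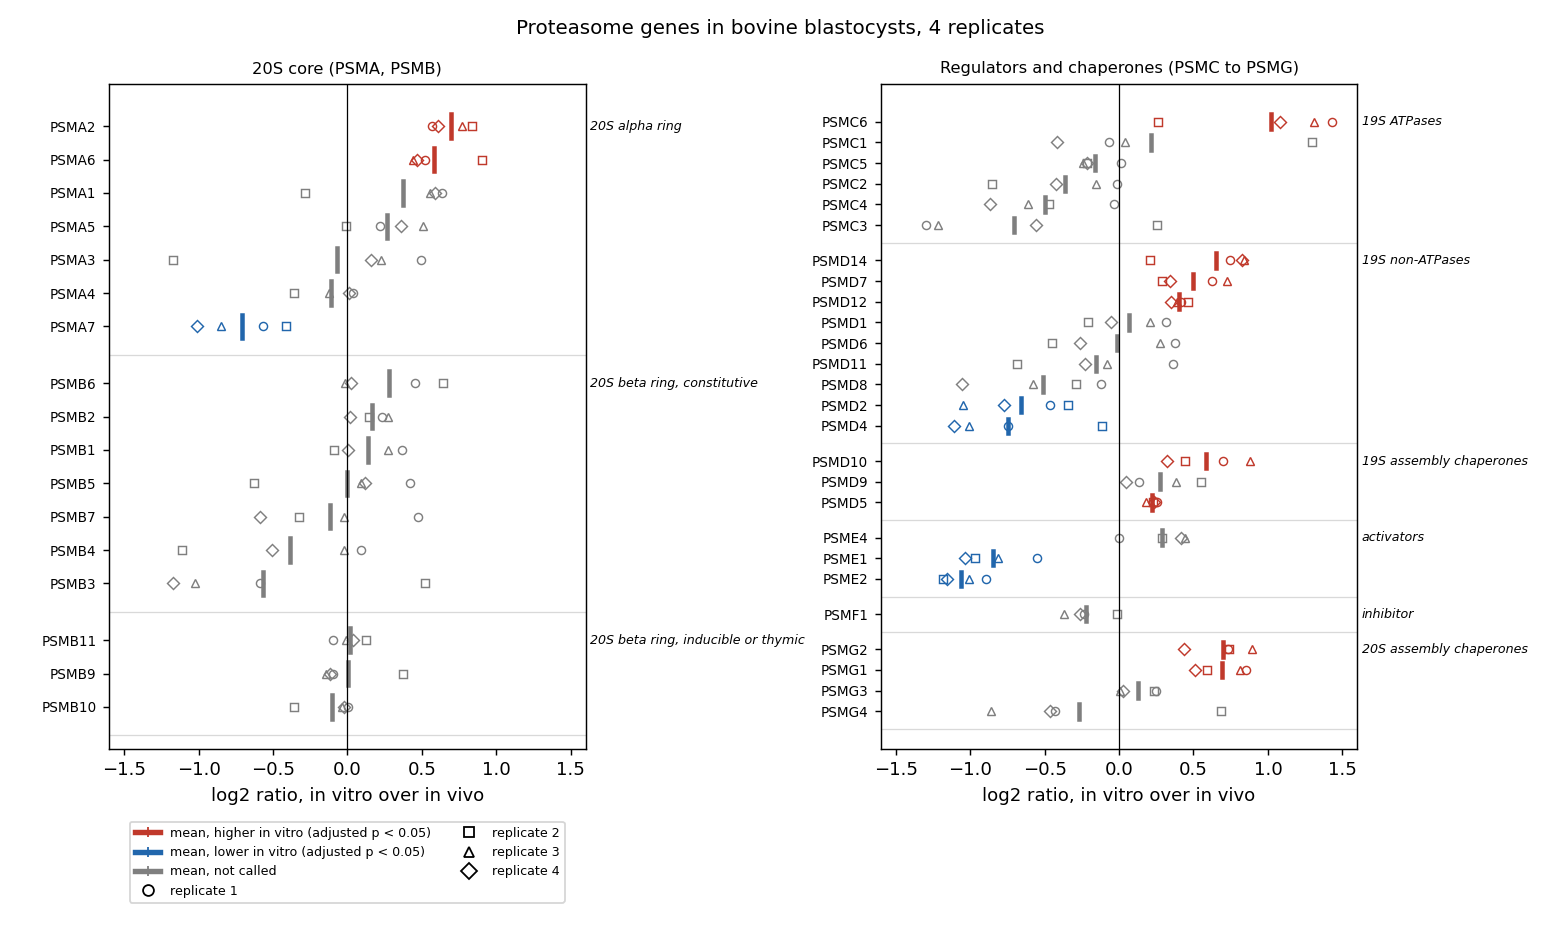
Log2 ratio, in vitro over in vivo, of the 43 tested proteasome genes, the 20S core at left and the regulators and chaperones at right, grouped by role. Open symbols are the 4 replicates, each the mean of its dye-swapped arrays, and bars are their means, coloured where the adjusted p is under 0.05; the 2 higher and 1 lower core genes all lie in the alpha ring, and the largest ratios of the regulators reach 1.02 for PSMC6 and -1.06 for PSME2.

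The alpha ring, which forms the outer rings and the gate of the barrel, did not move as a unit. Of its 7 tested genes PSMA2 and PSMA6 were higher in vitro, PSMA7 was lower and 4 were not called. That is 42.9% called, against 21.8% of all genes. PSMA2 had normalized log2 levels of 14.73, 14.63, 14.77 and 14.65 in the in vitro replicates 1 to 4, against 14.16, 13.80, 14 and 14.05 in the in vivo replicates. The groups did not overlap, and the log2 ratio was 0.70 ± 0.0710 (SE, n = 4, adjusted p = 0.00643 by limma). PSMA6 read 14.79, 14.94, 14.77 and 14.83 in vitro, against 14.27, 14.04, 14.33 and 14.37 in vivo, again with no overlap. Its ratio was 0.58 ± 0.0974 (adjusted p = 0.0173), and replicate 2 had the largest difference. PSMA7 went the other way, with 11.82, 12.09, 11.50 and 11.15 in vitro, against 12.39, 12.50, 12.34 and 12.15 in vivo. Every in vitro value was below every in vivo value, and the ratio was -0.71 ± 0.116 (adjusted p = 0.0163). PSMA2 kept its call when any 1 replicate was left out (adjusted p of 0.00500 to 0.0420), but it lost it with the mean of its 6 tested probes (0.30, adjusted p = 0.0715). PSMA6 lost its call without replicate 1, 3 or 4 (adjusted p = 0.0719, 0.0582 and 0.0676), as did PSMA7 (0.0612, 0.0752 and 0.0635), and both kept it without replicate 2 (0.00534 and 0.00806). The brightest readings of PSMA6 and PSMA2 were 33472 and 32691 on a scanner scale where the brightest spot of each array read 38342 to 40155. Of the other members, PSMA1 gave 0.37, PSMA5 0.27, PSMA3 -0.07 and PSMA4 -0.11. PSMA1 was positive in replicates 1, 3 and 4 at 0.64, 0.56 and 0.59 and negative in replicate 2 at -0.29. PSMA3 was positive in the same 3 replicates, from 0.16 to 0.49, and -1.17 in replicate 2. Without replicate 2, PSMA1 was called at 0.59 ± 0.0466 (adjusted p = 0.00392) and PSMA5 at 0.36 ± 0.0724 (adjusted p = 0.0245).

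The beta ring, whose PSMB5, PSMB6 and PSMB7 subunits carry the cutting sites, had no called gene. Its 7 constitutive members ranged in log2 ratio from -0.56 for PSMB3 to 0.28 for PSMB6, with a median of 0.00. PSMB6, the caspase-like subunit, had levels of 13.90, 14.05, 13.65 and 13.32 in vitro, against 13.44, 13.41, 13.67 and 13.29 in vivo. Replicates 1 and 2 were higher in vitro and the other two were level, so the groups overlapped (0.28 ± 0.135, adjusted p = 0.224). PSMB5, the chymotrypsin-like subunit, averaged 11.85 ± 0.27 both in vitro and in vivo (SD, n = 4 each), with a ratio of 0.00 ± 0.179. PSMB7, the trypsin-like subunit, gave -0.12 ± 0.184. Its other tested probes were at 0.06 and 0.21, not called, so its sign depended on the probe. PSMB3, a structural subunit, read 11.41, 12.40, 10.94 and 10.47 in vitro, against 11.99, 11.88, 11.96 and 11.64 in vivo. It was lower in vitro in replicates 1, 3 and 4 and higher in replicate 2, with a ratio of -0.56 ± 0.300 (adjusted p = 0.260). Without replicate 2 it was called at -0.93 ± 0.130 (adjusted p = 0.0105). PSMB4 gave -0.39, PSMB2 0.17 and PSMB1 0.14, none of them called.

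The genes of the inducible and thymic beta subunits, which replace the constitutive ones in immune cells and in the thymic cortex, lay close to the background of the array in both kinds of embryo. PSMB9 averaged 7.01 ± 0.24 in vitro and 7.01 ± 0.04 in vivo, PSMB10 averaged 7.23 ± 0.24 in vitro and 7.33 ± 0.26 in vivo, and PSMB11 averaged 7.04 ± 0.09 in vitro and 7.03 ± 0.04 in vivo (SD, n = 4 each). On the same scale the detection limit, the level that 95% of negative controls stayed below, was 6.63 to 6.80 for in vitro RNA and 6.57 to 6.80 for in vivo RNA. Their log2 ratios were 0.00, -0.10 and 0.01, with adjusted p of 0.988, 0.460 and 0.908. At such levels a difference between the groups would be understated.

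The ATPase ring of the 19S particle had 1 called gene (16.7%, against 21.8% of all genes). PSMC6 was higher in vitro, and the other 5 ATPase genes were not called, with 4 of them at negative ratios. PSMC6 (RPT4 in yeast) read 13.27, 12.71, 13.06 and 12.93 in the in vitro replicates, against 11.84, 12.45, 11.75 and 11.85 in the in vivo replicates. All in vitro values lay above all in vivo values, with replicate 2 giving the smallest difference, 0.27, where the others gave 1.08 to 1.43. The log2 ratio was 1.02 ± 0.209 (adjusted p = 0.0295), the largest positive ratio when each gene is read from its brightest probe. With the mean of all tested probes it was 0.56 (adjusted p = 0.0446), below PSMG2 at 0.74 and PSMG1 at 0.69. The call was lost without replicate 1, 3 or 4 (adjusted p = 0.107, 0.112 and 0.111), was kept without replicate 2 (0.00343) and was lost with median centring in place of loess (1.08, adjusted p = 0.0608). PSMC3 (RPT5), the ring neighbour and assembly partner of PSMC6, had the lowest ratio of the ring. It read 8.53, 9.67, 8.53 and 8.54 in vitro, against 9.82, 9.41, 9.75 and 9.09 in vivo. In 3 replicates it was lower in vitro and in replicate 2 it was higher, so it was not called (-0.70 ± 0.283, adjusted p = 0.151), and without replicate 2 it was (-1.02 ± 0.168, adjusted p = 0.0151). The reversal in replicate 2 rests on 1 probe. The other tested probe of PSMC3 gave -0.32, with -0.505 and -0.607 on the arrays of replicate 2 and 0.116 and 0.061 on those of replicate 4. PSMC4 gave -0.50 ± 0.144 (adjusted p = 0.0704), PSMC2 -0.36 ± 0.151 and PSMC5 -0.16 ± 0.0683. PSMC1 had the widest spread of the ring, with ratios of -0.07, 1.30, 0.04 and -0.42.

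Among the 9 tested 19S subunits that are not ATPases, 3 were higher and 2 were lower in vitro. That is 55.6% called, against 21.8% of all genes. When these 9 genes were set out by place in the particle, a grouping chosen after their values were seen, the 3 higher ones were all lid genes. The 2 lower ones were a scaffold and a receptor gene of the base. The base also holds the ATPases, of which PSMC6 was higher at 1.02, so not every called base gene was lower. The lid is the part of the 19S particle that removes ubiquitin chains, and the base scaffolds and receptors dock the substrate. Of the lid, 3 of 6 tested genes were higher and none was lower (9.23% and 12.6% of all genes). PSMD14 (RPN11), the metalloprotease that cuts ubiquitin off the substrate, read 13.66, 12.99, 13.57 and 13.57 in vitro, against 12.92, 12.78, 12.73 and 12.75 in vivo. The groups did not overlap (0.65 ± 0.126, adjusted p = 0.0253). PSMD7 (RPN8), its catalytically inactive partner, read 9.31, 9.04, 9.40 and 8.83 in vitro, against 8.69, 8.75, 8.68 and 8.49 in vivo. It too had no overlap, with a ratio of 0.49 ± 0.0969 (adjusted p = 0.0265). PSMD12 (RPN5), a lid scaffold, gave the most even ratios of the lid, 0.41, 0.46, 0.39 and 0.35, with a mean of 0.40 ± 0.0538 (adjusted p = 0.01). Its levels were 12.37, 12.05, 12.19 and 12.26 in vitro, against 11.96, 11.59, 11.80 and 11.91 in vivo, with no overlap. The remaining lid genes were not called, PSMD6 at -0.02, PSMD11 at -0.16 and PSMD8 at -0.51 ± 0.166 (adjusted p = 0.0923).

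Of the 3 tested scaffold and receptor genes of the base, PSMD2 and PSMD4 were lower in vitro and PSMD1 was not called (0.07 ± 0.105). PSMD4 (RPN10), a ubiquitin receptor, read 9.04, 9.65, 8.97 and 8.63 in vitro, against 9.78, 9.76, 9.98 and 9.73 in vivo. Replicate 2 had the smallest difference, at -0.11, and the others were at -1.11 to -0.75, and the groups did not overlap (-0.74 ± 0.180, adjusted p = 0.0444). PSMD2 (RPN1), the scaffold where shuttle proteins and a deubiquitinase dock, read 13.70, 13.93, 13.69 and 13.68 in vitro, against 14.16, 14.27, 14.74 and 14.45 in vivo. Its ratio was -0.66 ± 0.133 (adjusted p = 0.0286), with no overlap. None of these 5 calls held without replicate 1, 3 or 4, and all held without replicate 2. Without replicates 1, 3 and 4 in turn the adjusted p was 0.103, 0.101 and 0.107 for PSMD14, 0.109, 0.0921 and 0.0800 for PSMD7, and 0.0589, 0.0542 and 0.0596 for PSMD12. It was 0.141, 0.156 and 0.153 for PSMD4 and 0.0789, 0.0740 and 0.115 for PSMD2. With median centring the ratios of PSMD14 and PSMD7 were 0.73 and 0.42 and no longer called (adjusted p = 0.0734 and 0.144). PSMD4 was at adjusted p = 0.0557 with no background subtraction and 0.0676 with no filter on dim probes, and PSMD7 was at 0.28 and not called on slide 61 alone (adjusted p = 0.0963).

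The 3 chaperones that assemble the 19S base were all at positive ratios, and 2 of them were called higher. PSMD10 (gankyrin), which also binds the retinoblastoma protein, read 9.87, 10.05, 9.87 and 9.63 in vitro, against 9.17, 9.61, 9.0 and 9.30 in vivo. No in vitro value was below an in vivo value (0.59 ± 0.109, adjusted p = 0.0233). PSMD5 (S5B) had small and very even ratios of 0.25, 0.23, 0.18 and 0.24, for a mean of 0.22 ± 0.0519 (adjusted p = 0.0401). Its levels were 8.68, 8.60, 8.70 and 8.82 in vitro, against 8.43, 8.37, 8.52 and 8.59 in vivo, so the groups were just apart. That mean hides a split by dye: PSMD5 was at 0.45 on slide 58 and at -0.01 on slide 61, and higher on 5 of 8 arrays. PSMD9 (p27) gave 0.28 ± 0.103 (adjusted p = 0.124). Both calls were lost without replicate 1, 3 or 4, at adjusted p of 0.0985, 0.0736 and 0.0543 for PSMD10 and 0.157, 0.128 and 0.179 for PSMD5, and with median centring (0.0912 and 0.354). PSMD5 also lost its call in the replicate block (0.0655).

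The alternative caps held the strongest falls. PSME1 and PSME2 encode the alpha and beta subunits of PA28, the interferon-inducible cap that favours peptides for antigen presentation, and both were lower in vitro. PSME2 read 8.66, 8.52, 8.73 and 8.48 in the in vitro replicates, against 9.56, 9.70, 9.73 and 9.64 in the in vivo replicates. The groups were separated by a gap wider than either group's range, with a ratio of -1.06 ± 0.0723, 2.08-fold lower (adjusted p = 0.00502). PSME1 read 8.72, 8.65, 8.74 and 8.48 in vitro, against 9.27, 9.62, 9.56 and 9.52 in vivo, a ratio of -0.84 ± 0.0972, 1.79-fold lower (adjusted p = 0.00772). Both genes were lower in vitro on all 8 arrays, and both kept their call whichever replicate was left out (highest adjusted p 0.0393 for PSME2 and 0.0450 for PSME1). The 2 genes are close neighbours, with 1 gene between them in the order of the RefSeq annotation. Markers of blood cells, which express PA28, were not called in any of 5 tested genes. The mean of the 7 blood genes on the array, tested or not, was 6.98 to 7.25 in vitro and 7.15 to 7.29 in vivo. Of the 5 tested genes, ALAS2 (-0.43), CD68 (-0.43), HBA (-0.15) and CD3E (-0.01) were at negative ratios and PTPRC was at 0.10, with a median of -0.15. Their part in the PA28 values was not tested. PSME4 (PA200), a nuclear cap known for histone degradation in the mouse testis, was not called. It read 12.95, 13.13, 13.23 and 13.51 in vitro, against 12.95, 12.84, 12.78 and 13.09 in vivo, so the groups overlapped, with a ratio of 0.29 ± 0.0940 (adjusted p = 0.0936). PSMF1 (PI31), the inhibitor, had no overlap, at 7.22 to 7.37 in vitro against 7.39 to 7.65 in vivo, and was not called (-0.22 ± 0.0768, adjusted p = 0.108). The sign of this brightest probe depended on the slide, at -0.85 on slide 58 and 0.40 on slide 61 (adjusted p = 0.0139 on slide 61 alone). Without replicate 2 PSMF1 was called at -0.29 (adjusted p = 0.0189). Another tested probe gave -0.24 and was negative on both slides, at -0.49 to -0.17 on slide 58 and -0.38 to -0.04 on slide 61. The remaining tested probe gave -0.13.

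Of the 4 chaperones of 20S assembly 2 were called, each by every tested probe, although the ratio of the second PSMG2 probe came mostly from slide 61. PSMG1 and PSMG2, which form the PAC1-PAC2 dimer on which the alpha ring is built, were both higher in vitro. PSMG1 read 13.27, 13.34, 13.28 and 13.22 in vitro, against 12.41, 12.75, 12.47 and 12.72 in vivo. The in vitro values lay close together and clear of the in vivo range, with a ratio of 0.69 ± 0.0820 or 1.61-fold (adjusted p = 0.00799). PSMG2 read 12.88, 12.87, 13 and 12.89 in vitro, against 12.15, 12.14, 12.11 and 12.45 in vivo. Again the groups were apart, at 0.70 ± 0.0889 or 1.62-fold (adjusted p = 0.00902). PSMG1 kept its call without any 1 replicate (highest adjusted p 0.0448), and PSMG2 kept it without replicate 2, 3 or 4 and was at adjusted p = 0.0520 without replicate 1. The genes of the other dimer, PAC3-PAC4, were not called. PSMG3 gave 0.13 ± 0.0711 near background, at 7.17 to 7.40 in vitro and 6.92 to 7.25 in vivo. PSMG4 was lower in vitro in 3 replicates, from -0.86 to -0.43, and 0.68 in replicate 2 (-0.27 ± 0.262, adjusted p = 0.550). Without replicate 2 it was called at -0.58 ± 0.106 (adjusted p = 0.0192). The second tested probe of PSMG4 gave -0.33 and was not called, with -0.546 and 0.411 on the arrays of replicate 2. That probe was split by slide, at -0.99 to -0.55 on slide 58 and -0.03 to 0.41 on slide 61.

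**Figure D2:**
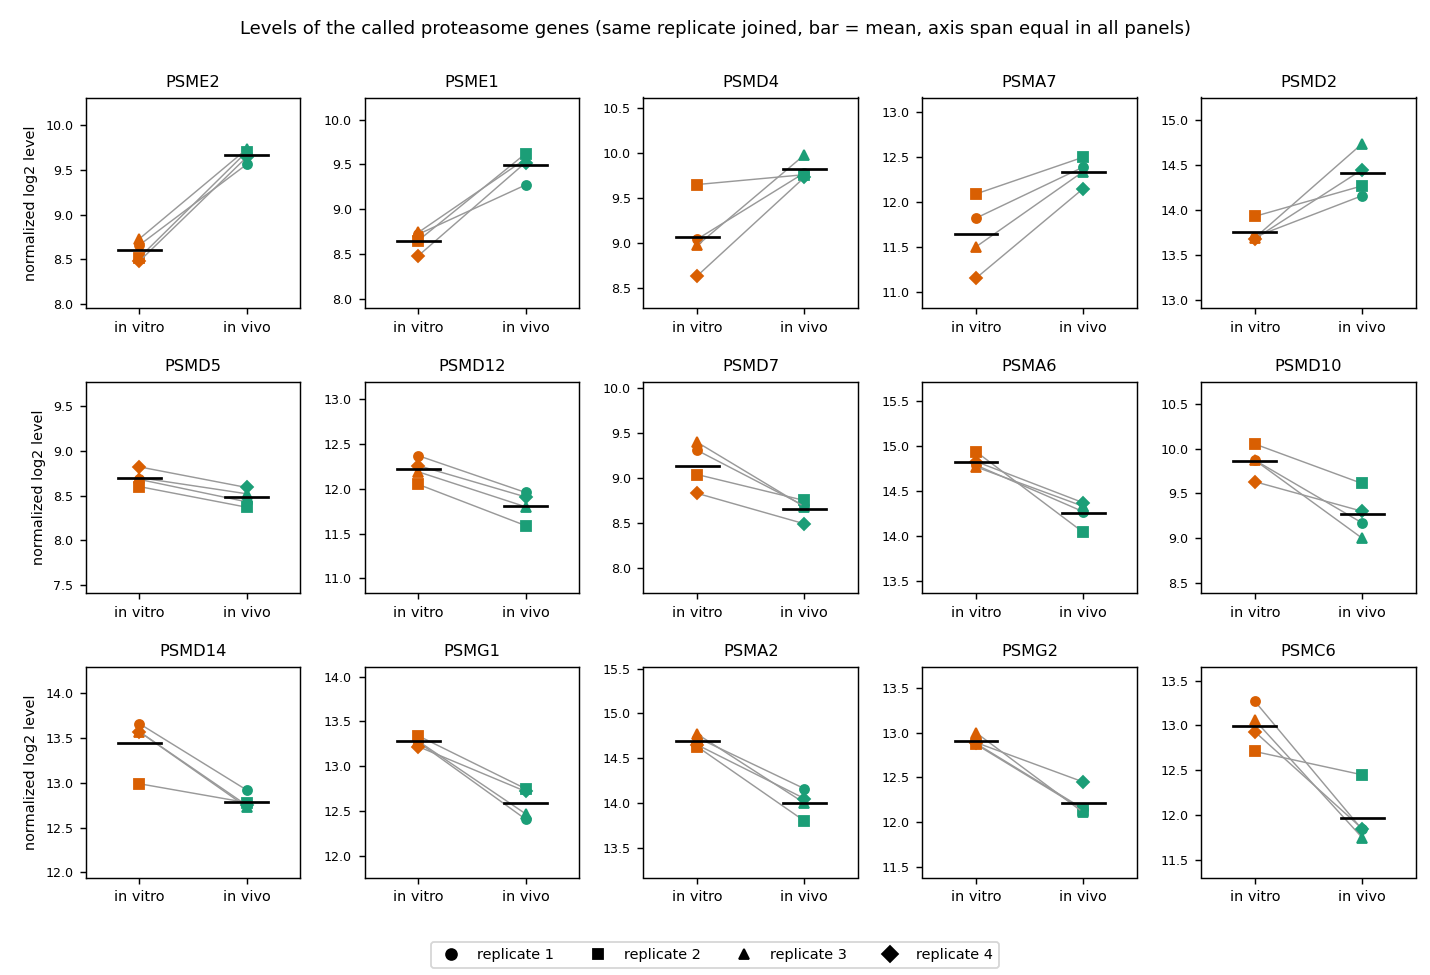
Normalized log2 level of the 15 called proteasome genes in the in vitro (left) and in vivo (right) embryos, the 5 lower genes in the top row. Each symbol is a replicate, lines join the same replicate and bars are means of 4; every panel spans the same number of log2 units, and in none of the 15 do the groups overlap.

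Leaving out single replicates divided the called genes. PSMA2, PSME1, PSME2 and PSMG1 were called in all 4 fits with 1 replicate left out, so 4 of the 15 calls depended on no single replicate. The other 11 were lost without replicate 1, and 10 of them also without replicate 3 and without replicate 4. None was lost without replicate 2. All 15 kept their direction in these fits. Calls became fewer over the whole array too. The full fit called 940 of the 10188 genes higher and 1285 lower. With replicate 1, 3 or 4 dropped, 282 to 372 genes were higher and 357 to 500 were lower. Dropping replicate 2 raised the counts to 1626 and 2063. Losing calls in such fits was therefore not particular to the proteasome genes. Without replicate 2, 6 more genes were called: PSMA1 and PSMA5 higher, and PSMB3, PSMC3, PSMF1 and PSMG4 lower. Over the list, replicate 2 had the opposite sign to the other 3 replicates in 9 of 43 genes (20.9%, against 23.4% of all genes), and replicate 1 in 6 (14%, against 6.32%).

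Where the array carried several tested probes for a gene, they showed how far a call rests on 1 probe. Several tested probes were present for 16 of the proteasome genes, and 6 of the 15 called genes were among them. All 4 tested probes of PSMG1 were called higher when adjusted over the 24775 probes, the other 3 at 0.61 to 0.82. The second probe of PSMG2 gave 0.78, that of PSMA6 0.53 and that of PSMD2 -1.01, and all were called. The second probe of PSMG2 was split by slide, at -0.07 to 0.34 on slide 58 and 1.31 to 1.59 on slide 61. The PSMG1 probe at 0.82 was at 0.33 to 0.58 on slide 58 and 1.14 to 1.27 on slide 61. PSMA2 stood apart: its 5 other tested probes gave 0.07 to 0.38, all positive and none called. The other probe of PSMC6, at 6.99 in vitro and 6.89 in vivo and so near background, gave 0.10 ± 0.0744. PSME4, not called by its brightest probe, was called by the next one at 0.45 ± 0.103 (adjusted p = 0.0464). PSMD4 was at adjusted p = 0.0540 over probes.

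**Figure D3:**
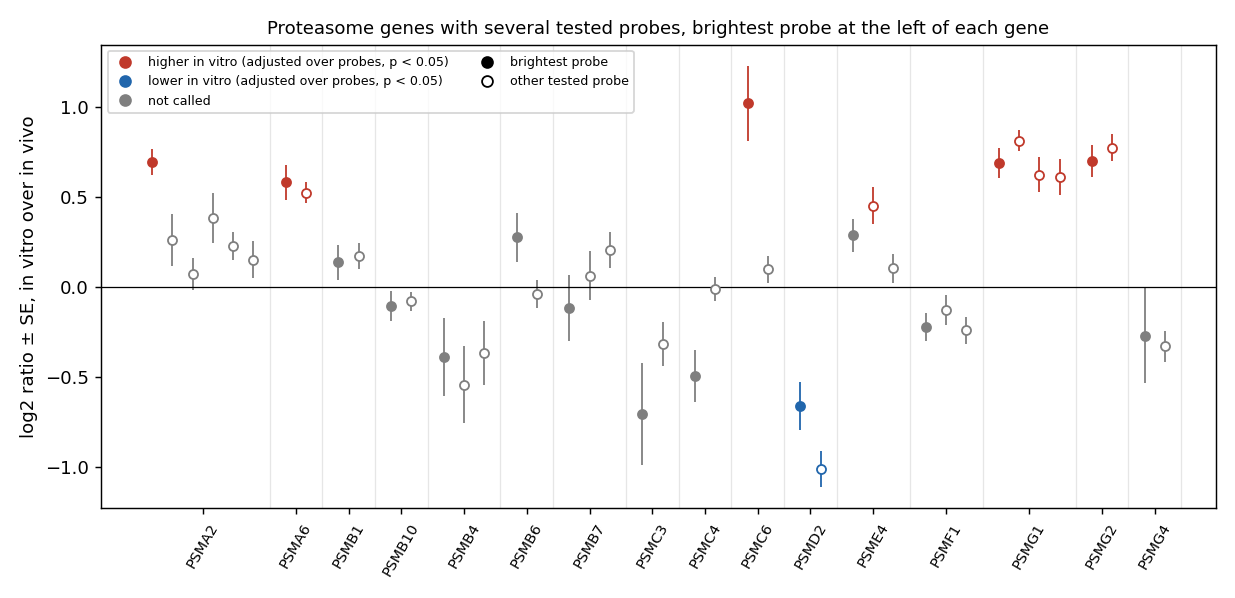
Log2 ratio ± SE (n = 4) of each tested probe in the 16 proteasome genes with several, filled for the brightest probe, which stands for the gene, and open for the others. Colours mark an adjusted p under 0.05 over probes; the 4 probes of PSMG1 agree in sign and call, while the 5 others of PSMA2 are all nearer to 0.

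Ratios of many proteasome genes differed in size between the dye orientations, as ratios on this array did in general. A difference between slide 58 and slide 61 was called in 29 of the 43 genes, against 69.9% of all genes. Their mean ratios had opposite signs on the slides in 11 genes (40.6% of all genes), and 1 of those, PSMD5, was among the called genes. Of the 15 called genes 13 had 1 direction on all 8 arrays, and the exceptions were PSMD5 and PSMC6, which was higher on 7 of 8. The calls come from the same arrays, so this agreement is partly built in. Of all 43 proteasome genes 8 were higher and 5 lower on all 8 arrays, against 9.82% and 13% of all genes. The largest differences were in genes that were not called: PSMF1 (-0.85 on slide 58 and 0.40 on slide 61), PSMB2 (-0.42 on slide 58 and 0.75 on slide 61) and PSMB4 (-0.82 on slide 58 and 0.04 on slide 61). Among called genes, on slide 58 and slide 61 in that order, PSME1 was at -0.53 and -1.16, PSME2 at -0.76 and -1.36, and PSMA2 at 1.00 and 0.39, each with the same direction on both slides.

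**Figure D4:**
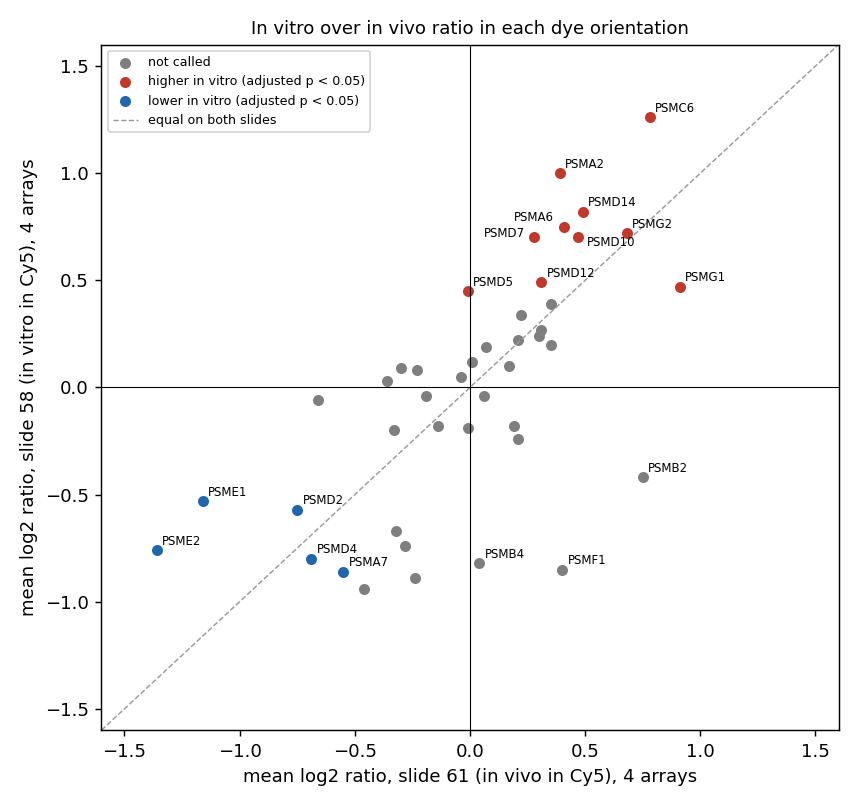
Mean log2 ratio, in vitro over in vivo, of the 43 proteasome genes on slide 58 (in vitro in Cy5, vertical) against slide 61 (in vivo in Cy5, horizontal), 4 arrays each. Coloured points are called over the 4 replicates and the dashed line marks equal ratios; called genes lie in the quadrants of equal sign except PSMD5, at -0.01 on slide 61.

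Genes that work with the proteasome also moved both ways. Of 43 tested genes in 5 lists, out of 48 on the array, 8 were higher and 4 lower in vitro. These are 18.6% and 9.3%, against 9.23% and 12.6% of all genes. Together 27.9% were called, against 21.8% of all genes, and the median log2 ratio was -0.03. Among 12 factors that bind or assemble the proteasome, 4 were higher and 1 was lower (41.7% called, against 21.8% of all genes). TXNL1, a thioredoxin-like protein of the 19S particle, read 12.40, 12.40, 12.70 and 12.61 in vitro, against 11.69, 11.92, 11.77 and 12.05 in vivo (0.67 ± 0.0919, adjusted p = 0.0106). The deubiquitinases that dock on the 19S particle also rose, USP14 by 0.58 ± 0.0772 (adjusted p = 0.00987) and UCHL5 by 0.49 ± 0.112 (adjusted p = 0.0381). With PSMD14, described above, all 3 deubiquitinases of the proteasome were higher, a grouping chosen after their values were seen. UBE3C, a ubiquitin ligase that extends chains on stalled substrates, fell to 9.32, 9.22, 9.47 and 9.65 in vitro, against 9.97, 9.70, 10.07 and 10.11 in vivo (-0.55 ± 0.0615, adjusted p = 0.00739). AKIRIN2, which brings proteasomes into the nucleus, was the other one called (0.36 ± 0.0673), the receptor ADRM1 gave 0.12 and the assembly factor POMP 0.11.

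The enzymes that start the ubiquitin cascade went opposite ways. UBA6 rose by 0.50 ± 0.119 (adjusted p = 0.0416), and the main activating enzyme UBA1 was lower, at -0.38 ± 0.0960 (adjusted p = 0.0499). In UBA1 the levels overlapped, at 7.49, 8.19, 7.73 and 7.58 in vitro against 7.82, 8.29, 8.27 and 8.12 in vivo. Among 14 shuttle and segregase genes 2 were higher and 1 was lower (21.4% called, near the 21.8% of all genes). VCP, the ATPase that pulls substrates out of complexes and membranes, read 11.93, 12.32, 11.92 and 12.06 in vitro, against 12.74, 12.53, 12.86 and 12.44 in vivo (-0.58 ± 0.144, adjusted p = 0.0464). Its partners UBXN2A (0.64 ± 0.0635, adjusted p = 0.00621) and UBXN4 (0.23 ± 0.0571, adjusted p = 0.0464) were higher, and the UBXN4 levels overlapped. Other partners of VCP in the list were not called: NSFL1C was at -0.68, FAF1 at -0.17 and UBXN1 at -0.10. NPLOC4 was at -0.04, UFD1L at -0.03 and FAF2 at 0.04.

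Of 8 genes that control transcription of proteasome genes only NFE2L2 was called (12.5%, against 21.8% of all genes). It was at 0.88 ± 0.109, with 12.38, 11.93, 12.36 and 12.30 in vitro against 11.39, 11.35, 11.19 and 11.51 in vivo. NFE2L1, whose product induces proteasome genes when the protease is inhibited, gave -0.04 ± 0.0598 (adjusted p = 0.712). Of 6 antigen processing genes 1 was called (16.7%, against 21.8% of all genes). It was NLRC5, the transactivator of class I genes, which was lower at -0.46 ± 0.0583 (adjusted p = 0.00899). Its levels, 6.84, 6.66, 6.97 and 6.84 in vitro against 7.22, 7.14, 7.40 and 7.40 in vivo, did not overlap and were near the negative controls. The interferon factor IRF1 gave -0.03 ± 0.0634, TAP2 -0.19 and B2M -0.17, none called.

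Of these 12 related calls NFE2L2, UBE3C and UBXN2A held whichever replicate was left out, and none was lost without replicate 2. NLRC5 was lost without replicate 4 (adjusted p = 0.0582), and TXNL1, UCHL5 and USP14 were lost without replicate 1 or 4 (highest adjusted p 0.0582, 0.137 and 0.0562). AKIRIN2, UBA1, UBA6, UBXN4 and VCP were lost without replicate 1, 3 or 4, with highest adjusted p of 0.115, 0.186, 0.125, 0.172 and 0.159. With the mean of all tested probes VCP was at -0.25 (adjusted p = 0.147), USP14 at 0.32 (0.0976) and AKIRIN2 at 0.20 (0.130), and UBXN4 at 0.23 (0.0533), so none of these 4 was called. With the deposited log2 ratios UBA1 (adjusted p = 0.0524) and UBXN4 (0.0539) were not called. UBA1 and VCP were also lost with no background subtraction (0.0603 and 0.0591) and with no filter on dim probes (0.0636 and 0.0678), as were UBA6 (0.0570) and UCHL5 (0.0519) without the filter. UBXN4 was lost with median centring (0.110). On slide 58 alone AKIRIN2, UBA1, UBXN4 and UCHL5 were not called (0.123, 0.268, 0.0612 and 0.203), and on slide 61 alone UBA6 and VCP were not (0.175 and 0.159).

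**Figure D5:**
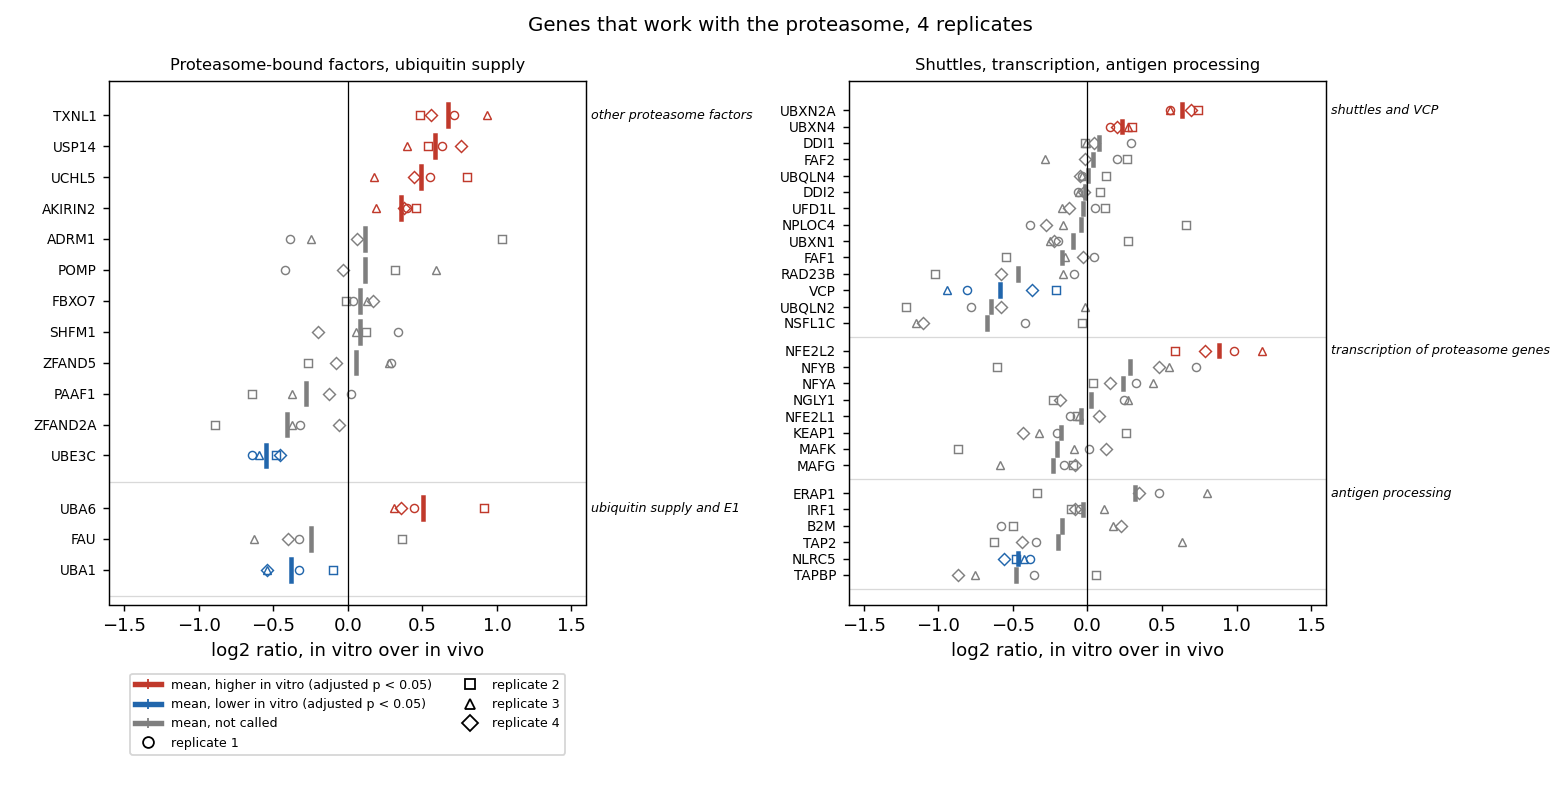
Log2 ratio, in vitro over in vivo, of the 43 tested genes that work with the proteasome: bound factors and ubiquitin supply at left, shuttles, transcription and antigen processing at right. Open symbols are the 4 replicates and bars their means, coloured where the adjusted p is under 0.05; 8 genes are higher, led by NFE2L2 at 0.88, and 4 are lower, led by VCP at -0.58.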

How the data were processed

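Total RNA was amplified and labelled with Cy3 and Cy5, per the labels' protocols. For each array there is a deposited scanner table of raw spot intensity and local background, not background corrected per the file headers, besides a series table of log2 ratios. In every column the deposited log2 values have in vitro embryos on top: they correlated at 0.999 or more with the ratios computed here, and column medians were -0.00385 to 0.00131. The sources used here do not state the authors' normalization and centring.

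Here the background was corrected by normexp with an offset of 50, and loess was run within arrays with controls weighted 0 (R 4.3.3, limma 3.58.1). Levels are normalized log2 values, after A-quantile scaling, averaged over both arrays of a replicate, and do not compare one gene with another. The number of arrays limits the precision. Arrays of the same replicate number were averaged (n = 4), since the design names a dye swap and deviations within a number correlated at 0.703, 0.894, 0.868 and 0.779 (highest with another number 0.149, -0.476, 0.149 and 0.129). The test was an intercept-only limma fit (lmFit, then eBayes), two-sided, adjusted by Benjamini-Hochberg over 10188 genes, each represented by its brightest tested probe. Prior df was 2.01. The p-values rest on this pooling of the spread.

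Members and lists were chosen with earlier results of these data known. Named are all called proteasome genes, the lowest and highest of each role, and up to 4 called genes per related list; AKIRIN2, the remaining called gene of its list, the related genes that were not called and the other members are named outside this rule, after their values were seen. All 46 member symbols are current in RefSeq. As no build is named in the files, coordinates are left out. Figures used Python 3.11.15 and matplotlib 3.10.9.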

Additional observations from a re-analysis of the deposited data

Results flagged for a closer look

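The screen for a replicate apart covered the called proteasome genes and the lowest and highest of each role. In it the log2 ratio of 1 replicate lay far from those of the other 3 in PSMB10 and PSMD14. So did 1 replicate's median over all proteasome genes. The gap to the nearest replicate, as a share of the whole range, was 0.895 for PSMB10, 0.843 for PSMD14 and 0.935 for the median, each above Dixon's critical value for 4 samples at the 95% level. The replicate apart was replicate 2 in PSMB10 (-0.36, others -0.04 to 0.00) and in PSMD14 (0.21, others 0.74 to 0.84). It was replicate 1 for the median (0.22, others -0.01 to 0.01). Chance marks about 1 in 20 such groups. Proteasome genes outside the screen also passed that critical value, among them PSMB9, with replicate 2 at 0.37 (others -0.14 to -0.10). In PSMA1 replicate 2 was at -0.29 (others 0.56 to 0.64), and in PSMC5 replicate 1 was at 0.01 (others -0.24 to -0.21).

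The log2 ratio differed between slide 58 and slide 61 in 29 proteasome genes by limma on the differences within replicates, as it did in 69.9% of all genes. The difference, slide 58 minus slide 61, was positive in the core genes PSMA2 (0.617), PSMA3 (0.31), PSMA4 (0.393), PSMA6 (0.34) and PSMB7 (0.158). It was negative in PSMA7 (-0.306), PSMB2 (-1.17), PSMB3 (-0.649), PSMB4 (-0.859), PSMB5 (-0.37) and PSMB6 (-0.145). Among ATPase genes it was positive in PSMC2 (0.601), PSMC5 (0.383) and PSMC6 (0.482) and negative in PSMC3 (-0.477) and PSMC4 (-0.356). Among PSMD genes it was positive in PSMD2 (0.175), PSMD5 (0.46), PSMD7 (0.421), PSMD9 (0.12), PSMD10 (0.222), PSMD12 (0.183) and PSMD14 (0.334) and negative in PSMD6 (-0.445) and PSMD8 (-0.464). In the caps, inhibitor and chaperones it was 0.623 for PSME1, 0.607 for PSME2, -1.25 for PSMF1 and -0.443 for PSMG1. Slide and dye cannot be told apart.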

How the results depend on the processing

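The deposited log2 ratios gave the same 15 proteasome calls and again 29 genes that differed between slides, and no ratio moved by more than 0.019; A-quantile scaling leaves ratios unchanged by its construction. Counts of higher proteasome genes went to 5 with median centring (3 of them regulators), and of higher core genes to 1 with the mean of all tested probes. Over all genes 6.88% were higher with median centring and 8.76% with the mean of probes. Leaving out 1 replicate gave 2 to 12 higher and 2 to 9 lower proteasome genes. It gave 1 to 4 and 0 to 2 for the core, 1 to 8 and 2 to 7 for regulators, 2 to 11 and 1 to 10 for related genes, and 0.02 to 0.15 for the core median; over all genes it gave 282 to 1626 higher and 357 to 2063 lower. In the paired fit, a replicate block over 8 arrays with a dye term, 11 proteasome genes were higher and 8 lower (7 regulators), and 9 related genes were lower. Of all genes 13.5% were higher and 17.1% lower in that fit. The block gained PSMC3, PSMC4, PSMD8, PSMD9 and PSME4 and lost PSMD5; it counts 8 arrays in its degrees of freedom, where the biological replicates number 4. Slide 58 alone gave 11 lower proteasome genes (3 core, 8 regulators) and 5 higher related genes, where 18.5% of all genes were lower and 14.6% higher. Slide 61 alone gave 7 lower related genes, near the share of the whole array (15.9% of all genes lower). Lower related genes numbered 2 with no background subtraction (10.9% of all genes) and 2 with no filter (7.61% of all genes). Higher ones numbered 5 with the mean of probes (8.76% of all genes). On slide 61 alone PSMD5 was at -0.01 and PSMF1 at 0.40. The cause of these changes was not tested. Genes near background, PSMB9, PSMB10, PSMB11, PSMG3 and PSMF1, have compressed ratios.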
